A study of Mus musculus with 60 samples.

Results

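The calf muscles of young Dmdmdx mice, which lack dystrophin, were compared with those of C57Bl/6 mice at 21 days of age. The arrays were chosen by their titles alone, 5 of Dmdmdx and 5 of C57Bl/6, and make up 10 of the 60 arrays of the series. All animals were labelled male and untreated, and the series design gives 1 array of the Affymetrix Mouse Gene 1.0 ST type per animal, so the spread below is that between mice. The other arrays hold the same lineages at 3 and 6 months, and Largemyd mice and Dmdmdx/Largemyd double mutants at all 3 ages. The Dmdmdx allele is carried by every cell of the animal. The mdx mutation is known to have arisen on a strain other than C57Bl/6, and the sources used here do not say whether mutants and controls shared a strain background or litters, so an effect of Dmd and one of strain cannot be told apart.

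Dystrophin ties the actin skeleton of the muscle fibre to a complex of membrane proteins and through it to the matrix outside. Without it the membrane tears during contraction, fibres die, blood monocytes enter and become macrophages that clear the debris, and muscle stem cells divide, commit and fuse into new fibres. In mdx mice the earliest broad wave of this damage and repair is known to fall around weaning, which is about the age studied here. Because whole muscle was measured, the number of cells of a type, their RNA per cell and their share of the total RNA cannot be told apart in any result below.

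Values are log2 expression as deposited, and differences are log2 fold changes of Dmdmdx minus C57Bl/6 with their standard error. Each gene was tested with limma over 19938 genes with Benjamini-Hochberg adjustment, and a gene is said to have risen or fallen where its adjusted p was under 0.05. Of all genes tested, 5018 (25.2%) passed, 2329 higher (11.7%) and 2689 lower (13.5%), while 34.9% had an unadjusted p under 0.05, and the median difference over all genes was -0.05. Large changes went mostly upward: 534 genes (2.68%) rose and 27 (0.135%) fell by 2-fold or more. The arrays of the groups did not overlap for 1673 genes that were higher (8.39%) and 2232 that were lower (11.2%). With each array's median subtracted the median of all genes moved to -0.13 and the split became 1831 higher and 4700 lower, so small falls of whole groups below are to be read against that shift.

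As a check of the labelled tissue, the mean of 14 genes that define skeletal muscle fibres lay between 12.84 and 13.03 in Dmdmdx and between 13.09 and 13.22 in C57Bl/6, and 5 of the 14 fell. Markers of lymph node, the B and T cell genes of a node that can be dissected with the calf, stood apart on 4 of the 10 arrays. Their mean over 20 genes was 9.45 in C57Bl/6 replicate 2 against 5.78 to 6.02 in the other 4 controls, and 8.34, 8.53 and 8.33 in Dmdmdx replicates 1, 3 and 5 against 5.92 and 5.90 in replicates 2 and 4. On the leading principal component of these 10 arrays, which held 61.9% of the variance, C57Bl/6 replicate 2 lay at 6.76, the other controls between -35.9 and -33.1 and Dmdmdx between 11.3 and 42.2. Results that rest on these arrays are therefore given also without the 4, which leaves 4 controls and 2 Dmdmdx mice. That fit also left out the arrays of other groups marked by lymph node, marrow or skin genes, so the shared error changed too. It is the fit used wherever marked arrays are left out below. In it 1847 genes were higher and 1878 lower, 67.8% of the calls held, and every held call had the same direction. Markers of marrow, skin, cartilage and bone, and fat cells had no member that passed the limma test (0 of 16, 0 of 12, 0 of 13 and 0 of 11), with 0, 0, 2 and 3 members at an unadjusted p under 0.05. With only the arrays of the 2 groups 4 cartilage and bone markers and 1 marrow marker were lower, and 2 fat cell markers were higher and 1 lower. The mean of the skin markers was 7.22 in C57Bl/6 replicate 2 and 7.20 in Dmdmdx replicate 5, against 5.96 to 6.34 on the other 8 arrays. That of the marrow markers was 6.76 in C57Bl/6 replicate 2 and 6.64 in Dmdmdx replicate 3, against 5.75 to 6.33 on the other 8.

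**Figure D1:**
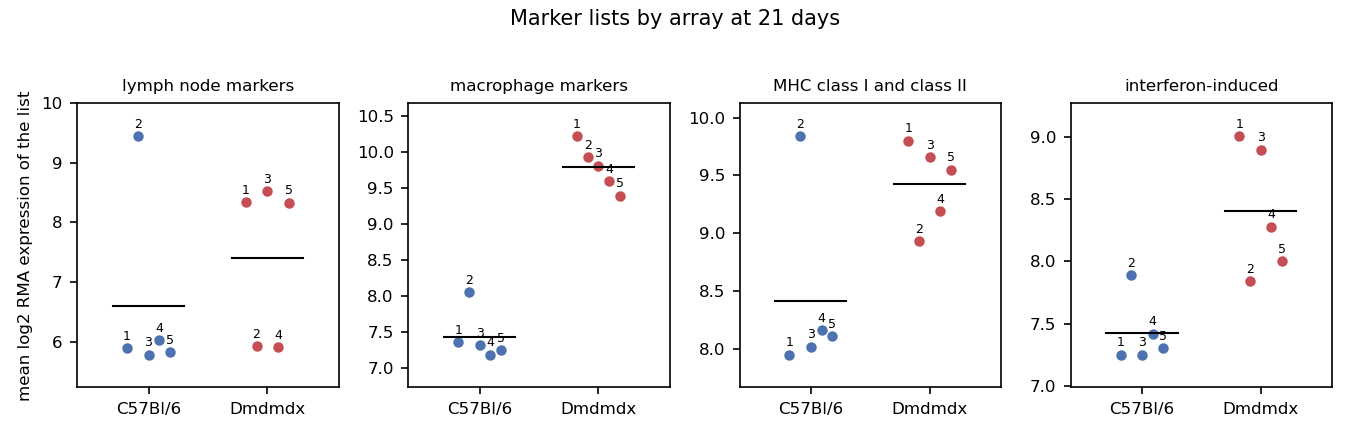
Mean log2 RMA expression of 4 gene lists on each array at 21 days (y axis), for C57Bl/6 and Dmdmdx (x axis). Points are arrays with their replicate number and lines are group means. The lymph node list is high in C57Bl/6 replicate 2 and in Dmdmdx replicates 1, 3 and 5, the macrophage list separates the groups (7.18 to 8.05 against 9.39 to 10.22), and the MHC list overlaps through C57Bl/6 replicate 2.

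Dmd itself, which encodes dystrophin, was 8.41, 8.65, 8.83, 8.33 and 8.31 in the 5 Dmdmdx mice and 9.95, 9.24, 10.12, 9.68 and 9.61 in the controls. All 5 mutants lay below all 5 controls, with C57Bl/6 replicate 2 the lowest control. The fall was -1.21 ± 0.18 (limma, adjusted p = 5.8e-07). The protein was not measured. Of 14 measured genes of the dystrophin complex and its relatives, 1 rose, 3 fell and 10 did neither, with a median of -0.02 that was close to that of all genes.

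The other falls in the complex were in Nos1, the neuronal nitric oxide synthase that dystrophin anchors at the membrane, and Sgca, alpha-sarcoglycan. Nos1 was 6.80, 6.76, 6.80, 7.08 and 7.01 in Dmdmdx and 7.83, 7.70, 8.09, 7.73 and 7.75 in C57Bl/6 (-0.93 ± 0.21, limma adjusted p = 0.0007). Sgca was 11.05, 11.15, 11.27, 11.47 and 11.35 against 11.89, 11.72, 11.90, 11.72 and 11.84 (-0.56 ± 0.17, limma adjusted p = 0.013). Neither gene overlapped between the groups. Sntb2, a syntrophin, rose by a small amount (0.26 ± 0.07, limma adjusted p = 0.0022). Utrn, the dystrophin homologue that can take its place in the complex, overlapped between groups, with 8.89 to 9.13 in Dmdmdx and 8.95 to 9.14 in C57Bl/6 (-0.03 ± 0.07, limma adjusted p = 0.84). Dag1, dystroglycan, was -0.13 ± 0.10 (limma adjusted p = 0.40), and the measured beta, delta and epsilon sarcoglycans Sgcb, Sgcd and Sgce gave 0.01, 0.26 and -0.01, none of which passed.

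Of 25 genes of the fibre's contact with the matrix and of membrane repair 7 rose, 2 fell and 16 did neither, with a median of 0.01. With array medians subtracted 5 rose and 3 fell, and the median was -0.07. The annexins Anxa1 and Anxa2, calcium-dependent proteins that gather at membrane wounds, rose by 1.38 ± 0.24 and 1.15 ± 0.15. Integrin alpha 7 (Itga7), the laminin receptor of muscle fibres, rose by 0.52 ± 0.17 and its partner Itgb1 by 0.27 ± 0.07. Talin 1 (Tln1), which links integrins to actin, rose by 0.41 ± 0.10, whereas talin 2 (Tln2), the form of mature fibres, fell by 0.68 on the log2 scale. Dysferlin (Dysf, -0.06) and the repair protein Trim72 (0.01) did not pass, nor did the laminins Lama2 (-0.08), Lamb2 (-0.19) and Lamc1 (-0.11). Without the lymph-node-marked arrays 5 of the 25 rose and 2 fell.

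Sarcomere genes of the embryo, which a regenerating fibre is known to use again for a short time, included several large rises. Embryonic myosin Myh3 was 10.27, 9.85, 10.17, 10.09 and 10.73 in Dmdmdx and 7.02, 6.54, 7.51, 7.22 and 7.29 in C57Bl/6. Cardiac troponin T, Tnnt2, was 11.23, 10.79, 10.96, 11.15 and 11.53 against 8.28, 8.26, 8.44, 8.13 and 8.16. Both stood more than 2 log2 units apart with no array between the groups (3.10 ± 0.36 and 2.88 ± 0.30, limma adjusted p = 3.5e-09 and 1.5e-10). Perinatal myosin Myh8 rose by 1.96 ± 0.25, the atrial light chain Myl4 by 2.33 ± 0.15 and the titin-associated stress protein Ankrd1 by 2.44 ± 0.25. Vimentin (Vim), which is not a sarcomere gene, rose by 0.58 ± 0.06.

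The list of embryonic and regenerating sarcomere genes was not uniform, since 7 of 22 rose, 6 fell and the median was -0.03 (0.03 without the lymph-node-marked arrays). The 6 that fell were Xirp1 (-0.76), Nrap (-0.64), Myl9 (-0.59), Myo18b (-0.52), Unc45b (-0.44) and Xirp2 (-0.37). Nrap and the Xin proteins Xirp1 and Xirp2 are known from myofibril assembly and from the ends of fibres, and Unc45b is a chaperone of myosin. Desmin (Des, -0.02) and the cardiac actin Actc1 (-0.11) did not pass.

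**Figure D2:**
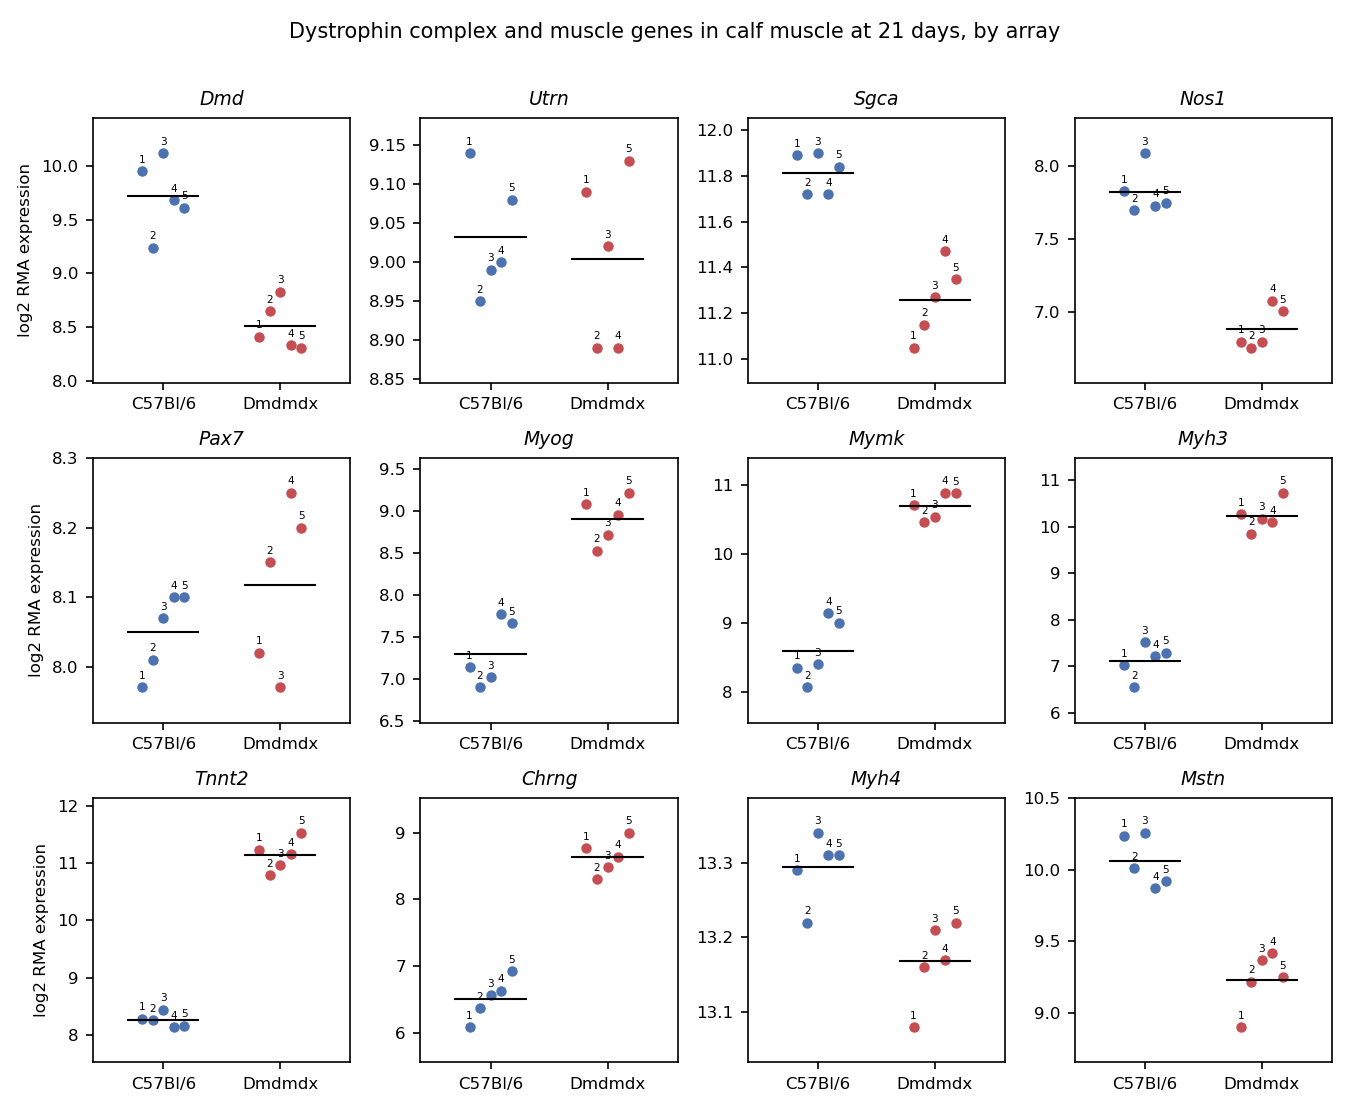
Log2 RMA expression (y axis, a separate scale in each panel) of 12 muscle genes on each array of C57Bl/6 and Dmdmdx at 21 days (x axis). Points are arrays with their replicate number and lines are group means. Dmd, Sgca, Nos1 and Mstn are lower and Myog, Mymk, Myh3, Tnnt2 and Chrng higher in all 5 Dmdmdx mice, while Utrn and Pax7 overlap.

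Of the factors that mark the path from stem cell to fibre, Myod1 and Myog rose and Pax7 and Myf5 did not pass. Pax7, the marker of satellite cells, lay between 7.97 and 8.25 in Dmdmdx and between 7.97 and 8.10 in C57Bl/6 (0.06 ± 0.11), and Myf5, an early commitment factor, gave 0.24 ± 0.18. Myod1, which marks activated myoblasts, was 9.62, 9.42, 9.58, 9.46 and 9.42 against 8.88, 8.53, 8.90, 9.04 and 9.09. The arrays did not overlap, but the call was marginal (0.61 ± 0.23, limma adjusted p = 0.039) and was lost in 7 of the 10 fits that left out 1 array and without the lymph-node-marked arrays (0.46, adjusted p = 0.20). Myog, the factor that starts differentiation, was 9.08, 8.53, 8.72, 8.96 and 9.22 in Dmdmdx against 7.14, 6.90, 7.02, 7.77 and 7.67 (1.6 ± 0.27, limma adjusted p = 8.2e-06). C57Bl/6 replicates 4 and 5 were the highest controls and still lay below every mutant.

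Myomaker (Mymk), the membrane protein that fuses myoblasts, rose most among the fusion genes, from 8.35, 8.06, 8.40, 9.14 and 9.0 in C57Bl/6 to 10.71, 10.46, 10.54, 10.89 and 10.88 in Dmdmdx (2.11 ± 0.33). Its partner myomixer (Mymx) rose by 0.87 ± 0.16 and N-cadherin (Cdh2) by 0.84 ± 0.18. M-cadherin (Cdh15) passed with 0.45 ± 0.17, a call lost in 7 of 10 fits without 1 array and without the lymph-node-marked arrays (adjusted p = 0.20). In all, 6 of 19 fusion genes rose and none fell, with a median of 0.17, and 3 at an unadjusted p under 0.05 were lower. Without the marked arrays 3 of the 19 rose and 1 fell. Once array medians were subtracted 3 were higher and 4 lower, and with array weights 7 were higher and 4 lower. In the longer list of stem cell and commitment genes 8 of 30 rose and 7 fell. Syndecan 3 (Sdc3, 0.81), Notch2 (0.60) and the fibroblast growth factor receptor Fgfr4 (0.47) were among the rises. The falls included Chrdl2 (-0.64), the cofactor Eya1 (-0.56), its partner Six4 (-0.42), the Notch target Hey1 (-0.33) and the calcitonin receptor Calcr (-0.26), which quiescent satellite cells carry.

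Among genes of the nerve-muscle contact 5 of 18 rose and none fell, with 1 lower at an unadjusted p under 0.05. The fetal acetylcholine receptor subunit Chrng was 8.77, 8.30, 8.48, 8.64 and 9.0 in Dmdmdx against 6.08, 6.37, 6.56, 6.63 and 6.92 (2.13 ± 0.28, limma adjusted p = 4.8e-08). The subunits Chrna1 and Chrnd rose by 1.14 ± 0.24 and 1.00 ± 0.19, and the adhesion molecule Ncam1 by 1.12 ± 0.20. The adult subunit Chrne (-0.25), the kinase Musk (0.11) and rapsyn (Rapsn, -0.09) did not pass.

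All 31 measured macrophage markers rose, with a median of 2.53 against -0.05 over all genes, and in 27 the arrays did not overlap. Of the 10 largest rises with separate arrays, 3 are on that list: Gpnmb (4.16 ± 0.28), a glycoprotein of phagocytes, Mpeg1 (3.98 ± 0.37), a pore protein of macrophages, and Lgals3 (3.63 ± 0.26), galectin 3. The other 7 were Atp6v0d2 (4.8 ± 0.47), Ccl3 (4.28 ± 0.36), Ccl2 (3.67 ± 0.38), Tlr13 (3.49 ± 0.31), the aldo-keto reductase Akr1e1 (3.38 ± 0.43), the inhibitory receptor Lilr4b (3.34 ± 0.36) and the protease Ctss (3.34 ± 0.29). The 10 largest falls with separate arrays were smaller. They are Dmd and, with their values further on, Pttg1, Lgi1, Tcea3, Mettl21c, Lrrc52, Klhl33, Mrln, Ppp1r3c and Ublcp1. The rise of the macrophage list held in 30 of 31 genes without the lymph-node-marked arrays, with a median of 2.69.

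The macrophage genes covered receptors of several kinds. Adgre1, which encodes the F4/80 antigen, was 11.13, 10.80, 10.61, 10.58 and 10.38 in Dmdmdx and 7.89, 8.32, 7.96, 8.0 and 8.14 in C57Bl/6 (2.64 ± 0.25). Csf1r, the growth factor receptor on which macrophages depend, rose by less, from 8.93, 9.42, 8.88, 8.78 and 8.86 to 10.74, 10.40, 10.44, 10.42 and 10.36 (1.5 ± 0.15). Both sets were separate, and in both C57Bl/6 replicate 2 was the highest control. Trem2, a lipid receptor of phagocytes, rose by 2.58 ± 0.25, Vsig4, a complement receptor of resident macrophages, by 2.23 ± 0.32, and Mrc1 and Cd163, markers of resident and repair macrophages, by 1.01 ± 0.16 and 0.59 ± 0.19, the last being the smallest rise on the list.

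Genes of the lysosome, where ingested debris is broken down, rose in 18 of 20 cases with a median of 1.20. Atp6v0d2, a subunit of the vacuolar proton pump known from macrophages and osteoclasts, was 9.76, 10.07, 9.69, 9.49 and 9.15 in Dmdmdx and 4.95, 4.88, 4.60, 4.79 and 4.91 in C57Bl/6. This was the largest rise among genes with separate arrays (limma adjusted p = 3.9e-11). Lysozyme 2 (Lyz2) rose by 2.21 ± 0.22, Tfec, a macrophage relative of the lysosomal transcription factor family, by 2.01 ± 0.31, lysosomal acid lipase (Lipa) by 1.91 ± 0.20 and progranulin (Grn) by 1.34 ± 0.14. General lysosome membrane proteins rose least, Lamp1 by 0.32 ± 0.06 and Lamp2 by 0.31 ± 0.08. The osteoclast enzymes Acp5 (1.22 ± 0.50) and Ctsk (0.65 ± 0.34) did not pass.

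Of 23 chemokine ligands 13 rose and 1 fell. Ccl3, which draws monocytes, was 10.83, 11.45, 10.47, 10.24 and 9.13 in Dmdmdx against 5.84 to 6.31 in C57Bl/6, and Ccl2, another monocyte attractant, was 10.97, 11.21, 10.54, 10.10 and 8.68 against 6.53 to 6.78. In both genes Dmdmdx replicate 5 was the lowest mutant and still lay over 1 log2 unit above every control. Ccl7 (3.19 ± 0.39), Ccl8 (3.12 ± 0.38), Ccl6 (2.75 ± 0.23) and Ccl9 (2.11 ± 0.21) rose as well, and Cxcl9 and Cxcl10, which draw T cells, rose by 1.76 ± 0.41 and 1.58 ± 0.33. Of the ligands known to draw neutrophils, Cxcl1 (-0.03) and Cxcl2 (0.35) did not pass and Cxcl5 rose by 0.37 ± 0.13. Cxcl12, which holds cells in marrow and vessels, was the ligand that fell (-0.51 ± 0.17).

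Among their receptors the largest rise was in Ccr2, which binds Ccl2 and Ccl7. It was 10.28, 9.84, 9.57, 9.65 and 9.33 in Dmdmdx and 6.28, 7.16, 6.52, 6.33 and 6.44 in C57Bl/6 (3.19 ± 0.33). Ccr1, a receptor of Ccl3, rose by 2.05 ± 0.39, Ccr3 by 1.69 ± 0.33 and Cx3cr1 by 1.11 ± 0.17, and 2 scavenging receptors of chemokines, Ackr2 (-0.36) and Ackr4 (-0.37), fell among 13 measured. Of 14 neutrophil markers 2 rose, Retnlg (2.07 ± 0.73, limma adjusted p = 0.031, lost in 7 of 10 fits without 1 array) and the receptor Csf3r (1.47 ± 0.38). S100a8 (1.08 ± 1.01), S100a9 (0.63 ± 0.90) and Ly6g (0.07 ± 0.85) did not pass and had wide errors, which are pooled over arrays that include marrow-marked ones. The count of 2 became 4 without the marked arrays, with array weights or with only the arrays of the 2 groups. It was 5 with the replicate letter as a block and 1 with the lymph node mean as a covariate.

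Cytokine genes rose in 13 of 23 cases and fell in none, also at an unadjusted p under 0.05. The receptor of interleukin 10 (Il10ra, 1.83 ± 0.23), the interleukin 1 antagonist Il1rn (1.58 ± 0.28), the hyaluronan receptor Cd44 (1.57 ± 0.20), and the type 2 cytokine receptors Il13ra1 (0.92 ± 0.13) and Il4ra (0.86 ± 0.18) rose more than Tnf or Csf1, the growth factor of macrophages (0.52 ± 0.11). Tnf rose by 0.54 ± 0.12, and Il6 (0.44 ± 0.21), Il1b (0.57 ± 0.25) and Il10 (0.30 ± 0.12) did not pass. In complement 11 of 17 genes rose, led by the receptors C3ar1 (3.10 ± 0.26) and Itgam (2.84 ± 0.35). The 3 chains of C1q, which start the classical cascade, rose by 1.44 to 1.93, factor B (Cfb) by 1.64 ± 0.22 and properdin (Cfp) by 1.63 ± 0.24. Cd59a, which protects cells from complement attack, fell (-0.56 ± 0.18).

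Genes induced by interferon rose in 22 of 24 cases with a median of 0.84, but the arrays overlapped in all but 8. Oasl2, a relative of the antiviral 2-5A synthetases, was 10.62, 9.21, 10.47, 9.77 and 9.14 in Dmdmdx and 7.79, 8.40, 7.63, 8.15 and 8.03 in C57Bl/6 (1.84 ± 0.29). Ifit3, an RNA-binding antiviral protein, was 10.45, 8.48, 10.57, 9.72 and 9.25 against 7.84, 8.66, 7.64, 7.75 and 7.48 (1.82 ± 0.35), and Dmdmdx replicate 2 lay below C57Bl/6 replicate 2. The list mean was 9.01, 7.84, 8.90, 8.28 and 8.0 in Dmdmdx and 7.25, 7.89, 7.25, 7.42 and 7.30 in C57Bl/6. The highest mutants, replicates 1 and 3, and the highest control, replicate 2, are all among the lymph-node-marked arrays. Without those arrays 14 of 24 genes rose and the median was 0.65. The part of the lymph node markers in the larger value was not tested further.

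The stretches upstream of interferon-induced genes carry a known element that interferon-activated factors bind, with GAAA repeated after 2 bases. GAAA, any 2 bases and GAAA again were searched on both strands in the 250 bases before each gene's start in the RefSeq promoter table. They stood in 8 of 19 members with an entry (42.1%) and in 936 of 27025 genes overall (3.46%). The 3 called members with the largest rise that hold the letters are shown because their level rose with the list (Ifit3 above, Ifit1 by 1.32 ± 0.34, Oas1a by 0.94 ± 0.14), with matches on either strand in capitals, 5′ to 3′ along the gene's strand. Ifit3 lies at chr19:34583279-34583528 on the plus strand of GRCm38.p6, Ifit1 at chr19:34640639-34640888 on the plus strand and Oas1a at chr5:120907526-120907775 on the minus strand.
Ifit3: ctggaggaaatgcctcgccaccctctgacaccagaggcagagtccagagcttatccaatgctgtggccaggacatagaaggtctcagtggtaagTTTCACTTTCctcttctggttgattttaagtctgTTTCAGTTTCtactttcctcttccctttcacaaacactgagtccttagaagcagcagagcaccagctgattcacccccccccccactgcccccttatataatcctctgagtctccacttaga
Ifit1: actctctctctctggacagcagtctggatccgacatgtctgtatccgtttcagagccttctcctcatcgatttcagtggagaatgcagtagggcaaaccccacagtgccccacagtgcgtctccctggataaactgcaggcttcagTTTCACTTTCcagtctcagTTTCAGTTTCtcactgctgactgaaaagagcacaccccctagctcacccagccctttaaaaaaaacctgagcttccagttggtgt
Oas1a: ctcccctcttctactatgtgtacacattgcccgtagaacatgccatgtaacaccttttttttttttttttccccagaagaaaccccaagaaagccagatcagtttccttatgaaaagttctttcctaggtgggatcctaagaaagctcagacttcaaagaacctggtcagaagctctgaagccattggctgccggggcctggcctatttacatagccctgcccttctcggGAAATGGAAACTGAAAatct
Each stretch holds 2 matches. In Ifit3 and Ifit1 they are apart and run on the opposite strand (TTTC, 2 bases and TTTC as printed), and the nearer one ends 112 and 75 bases before the start. In Oas1a they overlap each other, and the nearer one ends 4 bases before the start. Ifit1 was 9.47, 7.67, 9.61, 8.71 and 8.14 in Dmdmdx and 7.28, 8.13, 7.41, 7.09 and 7.10 in C57Bl/6, the same order of high mutants as in Ifit3, while Oas1a (7.65, 6.70, 7.38, 7.30 and 6.86 against 5.90, 5.82, 6.56, 6.73 and 6.17) overlapped by 1 pair of arrays. A match is a description of the letters only.

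Genes of antigen presentation rose in 12 of 15 cases (median 0.94), yet only 1 of them had separate arrays. The count was 14 without C57Bl/6 replicate 2, 9 with only the arrays of the 2 groups and 4 with the replicate letter as a block. The class II chain H2-Aa was 11.36, 10.47, 11.29, 11.28 and 11.34 in Dmdmdx and 8.60, 11.38, 8.55, 8.94 and 8.73 in C57Bl/6. C57Bl/6 replicate 2 was above every mutant, and the other 4 controls lay below every mutant. The difference was 1.91 ± 0.29 with all arrays, 2.44 without C57Bl/6 replicate 2 and 2.17 without the 4 marked arrays. The invariant chain Cd74 rose by 1.73 ± 0.30, the peptide transporter Tap1 by 0.94 ± 0.24 and B2m by 0.55 ± 0.09. Of the 20 lymph node markers none passed the limma test, with 3 higher at an unadjusted p under 0.05. The median of the lymph node markers was 0.65 with all arrays, 1.39 with 14 called without C57Bl/6 replicate 2, and 0.03 with 1 called without the marked arrays.

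Cell division genes rose in 28 of 30 cases with a median of 1.30, and in 29 the arrays did not overlap. The checkpoint kinase Bub1 was 7.89, 8.11, 7.92, 7.52 and 7.59 in Dmdmdx and 4.49, 6.12, 5.16, 6.31 and 5.98 in C57Bl/6 (2.19 ± 0.46, limma adjusted p = 0.00027). Cyclin A2 (Ccna2) rose by 2.07 ± 0.52, topoisomerase Top2a by 1.93 ± 0.51, cyclin B2 (Ccnb2) by 1.78 ± 0.48 and Cdk1 by 1.69 ± 0.37. The controls themselves spread widely, since C57Bl/6 replicates 1 and 3 were low in all 3 of Bub1, Top2a and Ccnb2 and replicates 2 and 4 high. Mki67 (1.69 ± 0.56, limma adjusted p = 0.02) lost its call in 3 fits without 1 array. Of the genes that copy DNA 22 of 29 rose (median 0.61), among them the primase Prim1 (1.28 ± 0.30), the helicase subunits Mcm2 to Mcm7 (0.64 to 1.17) and the methyltransferase Dnmt1 (0.75 ± 0.21). The counts without the marked arrays were 29 and 24.

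Pttg1, or securin, which guards the separation of sister chromatids, went against this group. It was 7.95, 7.84, 7.94, 7.52 and 7.81 in Dmdmdx and 9.56, 9.13, 9.35, 9.45 and 9.4 in C57Bl/6, with no overlap and little spread in either group. The fall of -1.57 ± 0.13 (limma adjusted p = 5.8e-13) was as large as that of Lgi1, a secreted protein known from synapses (-1.57 ± 0.38), and of the transcription elongation factor Tcea3 (-1.56 ± 0.16). Among 13 measured p53 targets 1 rose, Pmaip1 (0.33 ± 0.11, with its call lost in 2 of 10 fits without 1 array and, at an adjusted p of 0.26, without the marked arrays), and 1 fell, Aen (-0.28 ± 0.07).

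Promoters of genes that act late in the cell cycle are known to carry CCAAT boxes, which the factor NF-Y binds. CCAAT, read on both strands, stood in the 250 bases before the start of 20 of 25 cell division genes with an entry (80.0%) and of 10133 of 27025 genes overall (37.5%). The 3 called members with the largest rise that hold it are shown in the same way, with CCAAT or its reverse complement ATTGG in capitals. Bub1 lies at chr2:127831860-127832109, Top2a at chr11:99024190-99024439 and Ccnb2 at chr9:70421555-70421804, all on the minus strand of GRCm38.p6.
Bub1: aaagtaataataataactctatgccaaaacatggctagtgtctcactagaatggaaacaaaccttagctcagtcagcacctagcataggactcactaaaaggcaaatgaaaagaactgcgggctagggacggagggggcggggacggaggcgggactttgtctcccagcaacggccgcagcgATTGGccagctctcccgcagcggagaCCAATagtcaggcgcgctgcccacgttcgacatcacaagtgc
Top2a: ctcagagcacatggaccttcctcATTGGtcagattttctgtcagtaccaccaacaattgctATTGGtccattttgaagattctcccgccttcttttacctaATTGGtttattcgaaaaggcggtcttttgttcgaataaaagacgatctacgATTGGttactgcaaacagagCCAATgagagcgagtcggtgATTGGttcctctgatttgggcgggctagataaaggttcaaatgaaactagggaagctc
Ccnb2: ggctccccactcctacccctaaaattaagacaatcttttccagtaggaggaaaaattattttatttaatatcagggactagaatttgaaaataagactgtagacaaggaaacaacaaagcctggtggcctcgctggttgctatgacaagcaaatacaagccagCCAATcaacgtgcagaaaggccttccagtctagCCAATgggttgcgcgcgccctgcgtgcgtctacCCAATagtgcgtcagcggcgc
The stretches hold 2, 6 and 3 matches. Top2a was 8.21, 8.53, 8.48, 8.0 and 8.23 in Dmdmdx and 5.52, 7.04, 5.73, 7.05 and 6.46 in C57Bl/6. Ccnb2 was 9.85, 10.33, 10.05, 9.56 and 9.78 against 7.04, 8.83, 7.64, 8.75 and 8.41. In both genes, as in Bub1, Dmdmdx replicate 2 was the highest of all 10 arrays.

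Matrix genes rose in part, and the chains of type I collagen did not pass. Of 37 genes 16 rose and 1 fell, with a median of 0.27. Periostin (Postn), a protein of healing tissue, was 12.73, 12.77, 12.62, 12.68 and 12.92 in Dmdmdx and 11.52, 11.19, 11.69, 11.66 and 11.66 in C57Bl/6 (1.20 ± 0.22). The arrays did not overlap, and C57Bl/6 replicate 2 was lowest. Versican (Vcan, 1.09 ± 0.16), fibronectin (Fn1, 0.98 ± 0.14), thrombospondin 1 (Thbs1, 0.96 ± 0.21), lumican (Lum, 0.80 ± 0.19) and the crosslinking enzyme Lox (0.74 ± 0.15) rose as well. Tenascin C (Tnc) passed with 1.09 ± 0.34, and its call was lost without the lymph-node-marked arrays (1.02, adjusted p = 0.10). The chains of type I collagen, Col1a1 (-0.08 ± 0.23) and Col1a2 (-0.07 ± 0.19), overlapped between groups, as did the type IV chains Col4a1 (-0.10) and Col4a2 (-0.11). Fibromodulin (Fmod), a small proteoglycan of tendon and muscle, fell (-0.67 ± 0.19, and -0.51 with adjusted p = 0.20 without the marked arrays). Fibro-adipogenic progenitor markers rose in 4 of 18 cases, all of them matrix genes (Lum, Lox, Col6a3 and Col6a2), while Pdgfra (0.19) did not pass.

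Enzymes that cut the matrix, and their inhibitors, rose in 13 of 25 cases and fell in 3. Timp1, an inhibitor of matrix metalloproteinases, was 10.76, 10.79, 10.36, 10.19 and 10.10 in Dmdmdx and 7.01, 6.95, 7.82, 7.81 and 7.45 in C57Bl/6 (3.03 ± 0.27, limma adjusted p = 2.9e-12). The serine protease inhibitor Serpina3n rose by 3.01 ± 0.34, with C57Bl/6 replicate 2 (9.22) far above the other controls (7.53 to 7.77). Adam8 (2.20 ± 0.23), Mmp19 (1.77 ± 0.18) and Mmp12 (1.75 ± 0.35), a macrophage elastase, rose, while the gelatinases Mmp2 (0.18 ± 0.10) and Mmp9 (0.73 ± 0.68) did not pass. The other Timp genes moved apart from Timp1, since Timp2 rose by only 0.24 ± 0.08 and Timp3 (-0.49 ± 0.12) and Timp4 (-1.26 ± 0.30) fell.

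Growth factor genes gave no single direction. Tgfb1, a factor that drives scar formation, rose by 0.88 ± 0.20 (limma adjusted p = 0.00064), from 8.11, 9.35, 8.11, 8.31 and 8.34 in C57Bl/6 to 9.61, 9.56, 9.45, 8.99 and 9.02, where only C57Bl/6 replicate 2 overlapped. Its receptors Tgfbr1 and Tgfbr2 each rose by 0.35, and the latent binding protein Ltbp4, a known modifier of dystrophic disease in mice, fell by 0.56 on the log2 scale. Myostatin (Mstn), which limits muscle growth, was lower in every mutant, with 8.90, 9.22, 9.37, 9.42 and 9.25 against 10.24, 10.01, 10.26, 9.87 and 9.92. Its difference of -0.83 ± 0.30 passed (limma adjusted p = 0.032) but lost its call in 4 of 10 fits without 1 array and without the marked arrays (adjusted p = 0.061). The activin receptors Acvr2a (-0.35) and Acvr2b (-0.29), through which it acts, also fell. In the pathway as a whole 6 of 30 genes rose and 7 fell, and without the marked arrays 2 rose and 3 fell.

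In the insulin-like growth factor axis 4 of 14 genes rose and 3 fell. Igf1 rose by 0.53 ± 0.13, from 10.19 to 10.43 in C57Bl/6 to 10.78 to 10.90 in Dmdmdx, while Igf2 overlapped (0.15 ± 0.21). The RNA-binding protein Igf2bp3, best known from the fetus, was 7.21, 7.18, 6.98, 6.5 and 6.46 in Dmdmdx against 5.89, 6.32, 5.86, 5.74 and 5.69 (0.97 ± 0.13, limma adjusted p = 2.2e-07). The binding protein Igfbp3 fell (-0.75 ± 0.27), with the call lost in 5 of 10 fits without 1 array and without the marked arrays (-0.74, adjusted p = 0.13). Of 14 imprinted growth genes 4 rose and none fell, also at an unadjusted p under 0.05, led by Peg10 (1.42 ± 0.20) and Mest (1.27 ± 0.35). Peg3 (0.47 ± 0.17) lost its call in 5 of 10 such fits and without the marked arrays (adjusted p = 0.20), where 2 of the 14 rose.

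**Figure D3:**
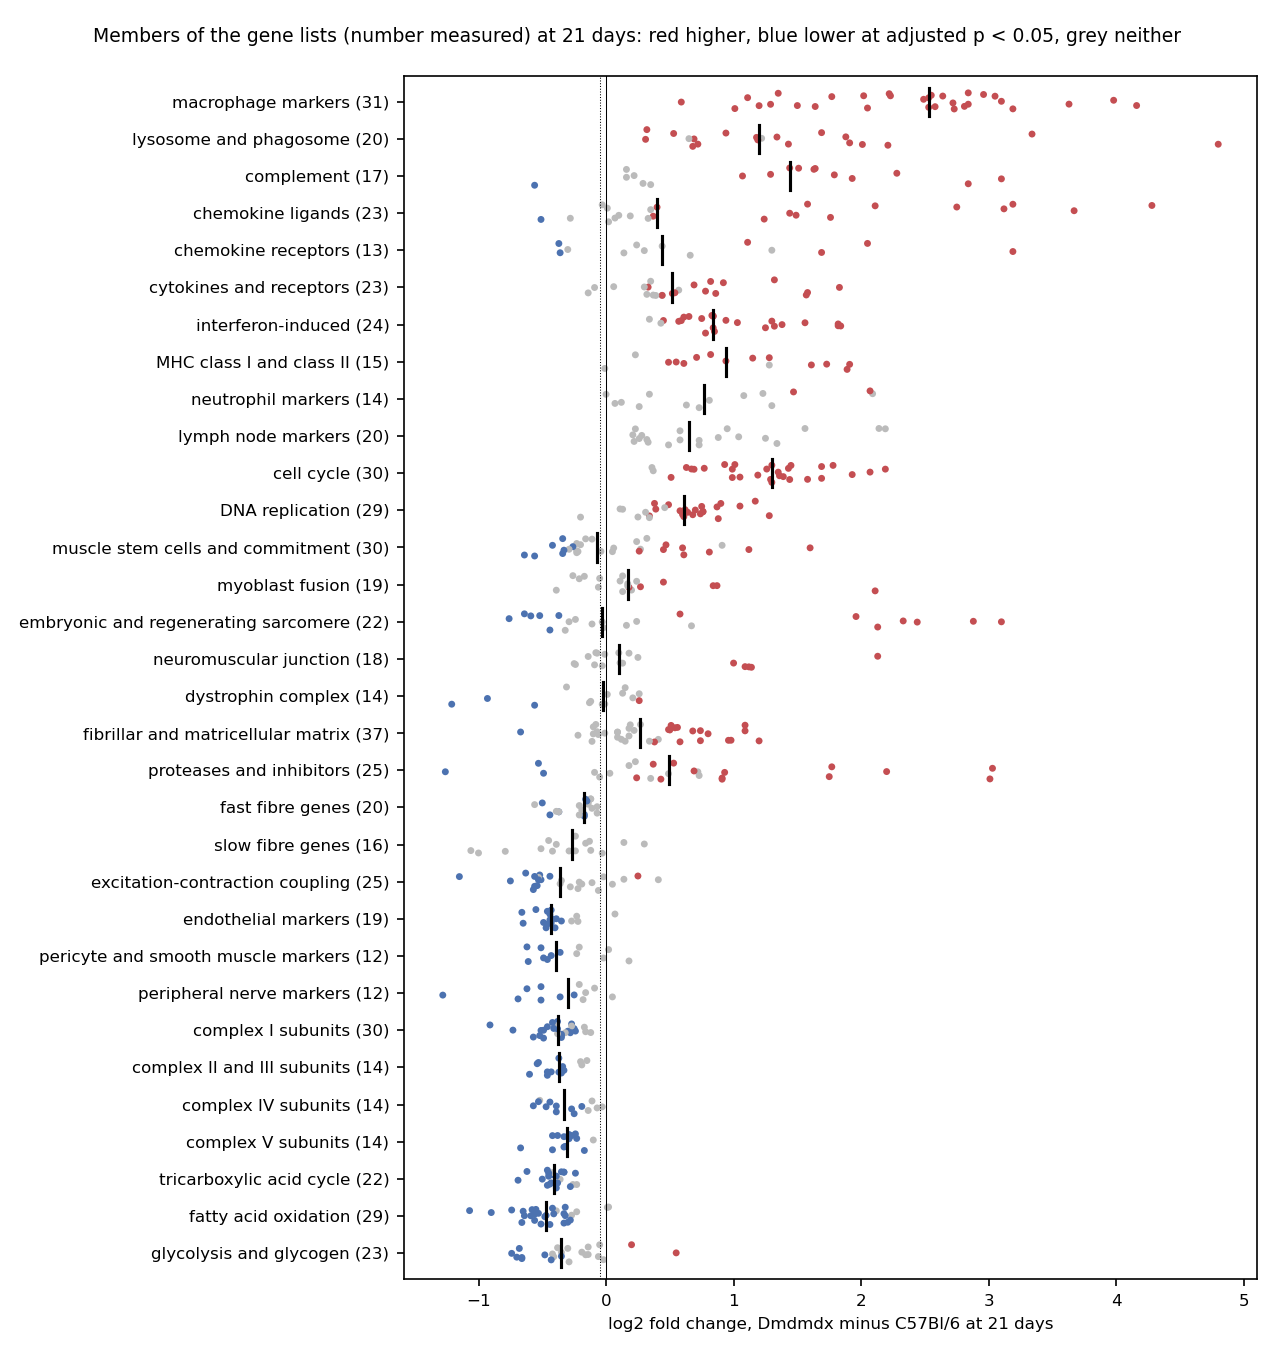
Log2 fold change of Dmdmdx minus C57Bl/6 at 21 days (x axis) for each measured member of 32 gene lists (y axis, number measured in brackets). Red points rose and blue points fell at a limma adjusted p under 0.05, grey points did neither, black bars are list medians and the dotted line is the median of all genes (-0.05). Immune and cell division lists lie to the right, with the macrophage median at 2.53, and the lists of energy metabolism lie to the left, with a median of -0.47 for fatty acid oxidation.

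Of 25 genes that couple excitation to contraction in the mature fibre 11 fell and 1, the calcium channel Orai1 (0.25 ± 0.08), rose, and with only the arrays of the 2 groups 18 fell. Myoregulin (Mrln), a small inhibitor of the calcium pump, was 8.83, 8.67, 8.82, 9.49 and 9.66 in Dmdmdx and 10.59, 9.90, 10.28, 10.07 and 10.38 in C57Bl/6 (-1.15 ± 0.24, limma adjusted p = 0.00033). No array overlapped, and Dmdmdx replicates 4 and 5 were nearest to the controls. The chloride channel Clcn1 (-0.75 ± 0.22), the voltage sensor Cacna1s (-0.63 ± 0.16), the release channel Ryr1 (-0.53 ± 0.14), the store sensor Stim1 (-0.54 ± 0.09) and the junctophilins Jph1 (-0.52) and Jph2 (-0.57) fell, and the calcium store protein Casq1 (-0.21) did not pass.

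Among fast fibre genes 7 of 20 fell, and 12 with only the arrays of the 2 groups. No slow fibre gene passed in either direction (0 of 16 with limma, 1 higher and 3 lower at an unadjusted p under 0.05), but this count depended on the fit, since 6 of 16 were lower with only the arrays of the 2 groups and 4 with the 20 arrays of 21 days. Myh4, the fastest myosin, was 13.08 to 13.22 in Dmdmdx and 13.22 to 13.34 in C57Bl/6 (-0.12 ± 0.09), and Myh1 (-0.12), Myh2 (-0.37 ± 0.21) and the slow Myh7 (-0.79 ± 0.42) did not pass. Alpha-actinin 3 (Actn3, -0.37 ± 0.08), the calcineurin-binding Myoz1 (-0.50 ± 0.14) and the thick-filament protein Mybpc2 (-0.44 ± 0.12) fell. Of the 10 largest falls with separate arrays, those outside the lists and not yet given were the methyltransferase Mettl21c (-1.30 ± 0.33), the potassium channel subunit Lrrc52 (-1.27 ± 0.29), Klhl33 (-1.16 ± 0.18), the glycogen-targeting subunit Ppp1r3c (-1.12 ± 0.28) and the phosphatase Ublcp1 (-1.10 ± 0.19).

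Genes of mitochondrial energy supply fell widely and by less than 1 log2 unit in nearly every case. Subunits of the respiratory chain fell in 23 of 30 cases for complex I, 11 of 14 for complexes II and III, 9 of 14 for complex IV and 13 of 14 for complex V, and none rose, also at an unadjusted p under 0.05. Ndufs6, a complex I subunit, was 9.19, 9.48, 9.33, 10.07 and 9.71 in Dmdmdx and 10.72, 10.24, 10.64, 10.37 and 10.38 in C57Bl/6 (-0.91 ± 0.15). The muscle form of a complex IV subunit, Cox6a2, fell by 0.57 and the Rieske protein Uqcrfs1 by 0.60 on the log2 scale. In the citric acid cycle 19 of 22 genes fell, among them citrate synthase (Cs, -0.39 ± 0.10). In most of these lists Dmdmdx replicates 4 and 5 were nearest to the controls, with complex I means of 10.83 and 10.75 against 10.55 to 10.61 in the other mutants and 10.90 to 11.15 in C57Bl/6. Medians of the lists lay between -0.31 and -0.41, against -0.05 over all genes.

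Fat burning genes fell in 24 of 29 cases with a median of -0.47. Ppara, the nuclear receptor that switches them on, was 7.19, 7.27, 7.27, 7.27 and 7.22 in Dmdmdx, a spread of under 0.1, and 8.73, 8.31, 8.60, 7.91 and 8.03 in C57Bl/6 (-1.07 ± 0.19, limma adjusted p = 2e-05). The isomerase Eci1 fell by 0.74 and the dehydrogenase Acadvl by 0.66 on the log2 scale. The coactivator Ppargc1a, which controls mitochondrial number, passed with -0.90 ± 0.33 (limma adjusted p = 0.036), lost in 6 of 10 fits without 1 array and without the marked arrays (adjusted p = 0.16). The fatty acid importers Cd36 (0.02) and Lpl (0.01) did not pass. Of 23 genes of glucose and glycogen use 10 fell and 2 rose. The falls included the insulin-responsive transporter Slc2a4 (-0.66 ± 0.18), lactate dehydrogenase B (Ldhb, -0.74 ± 0.18) and the muscle phosphorylase Pygm (-0.35 ± 0.10), and the rises were Pgm2 (0.55 ± 0.13) and hexokinase 1 (Hk1, 0.20 ± 0.07), while hexokinase 2 (Hk2) fell (-0.43 ± 0.15).

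Vessel and nerve markers fell as well. Of 19 endothelial markers 15 fell and none rose, with a median of -0.43, and in 12 the arrays did not overlap. Robo4, a guidance receptor of endothelium, was 8.12, 8.08, 8.12, 8.22 and 8.25 in Dmdmdx and 8.70, 8.79, 8.79, 8.85 and 8.98 in C57Bl/6 (-0.66 ± 0.10, limma adjusted p = 6.4e-07). The phosphatase Ptprb (-0.65 ± 0.12), the receptor Tek (-0.55 ± 0.13) and the factor Erg (-0.49 ± 0.08) fell, and Pecam1 (-0.27) and Vwf (0.07) did not pass. Pericyte and smooth muscle genes fell in 7 of 12 cases, with the myosin Myh11 at -0.62 ± 0.12 and Rgs5 at -0.61 ± 0.12. In the Schwann cell list 7 of 12 fell. Pmp2, a myelin protein, was 7.17, 6.42, 6.43, 7.76 and 7.86 in Dmdmdx and 8.99, 7.79, 8.16, 8.69 and 8.42 in C57Bl/6 (-1.28 ± 0.22), a small overlap that came from C57Bl/6 replicate 2. No endothelial, pericyte or nerve marker was higher at an unadjusted p under 0.05.

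Stress genes changed in both directions. Metallothionein 2 (Mt2), a metal-binding protein, was 12.83, 13.18, 12.80, 12.79 and 12.70 in Dmdmdx and 12.69, 11.55, 11.47, 10.54 and 10.31 in C57Bl/6 (1.55 ± 0.24, limma adjusted p = 1.7e-06). The mutants were alike and the controls ran over more than 2 log2 units. Chac1, a glutathione-degrading enzyme of the amino acid response, split the controls the same way, at 10.28, 10.20 and 9.79 in replicates 1 to 3 and 7.97 and 8.16 in replicates 4 and 5, against 7.27, 7.60, 7.17, 8.77 and 8.11 in Dmdmdx. Its fall of -1.5 ± 0.37 (limma adjusted p = 0.0018) was -0.87 (adjusted p = 0.24) without the marked arrays. Asparagine synthetase (Asns) rose without overlap (1.04 ± 0.21), and so did the chaperones Sdf2l1 (0.75 ± 0.16) and Pdia4 (0.66 ± 0.14), within a list of the unfolded protein response where 8 of 18 rose and 3 fell (5 rose without the marked arrays).

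Subunits of the phagocyte oxidase rose among the genes of oxidative stress, Cybb by 2.72 ± 0.38, Cyba by 1.51 ± 0.25 and Ncf1 by 1.51 ± 0.30, as did heme oxygenase Hmox1 (1.32 ± 0.29). The mitochondrial dismutase Sod2 fell (-0.50 ± 0.10), and 9 of 23 genes of that list rose. The ubiquitin ligases of muscle wasting, Trim63 (-0.78 ± 0.38) and Fbxo32 (-0.23 ± 0.42), did not pass, and in their list 4 of 21 rose and 2 fell. Arg1, the arginase of repair macrophages, led the polyamine genes, with 7.94, 8.55, 7.47, 6.83 and 5.75 in Dmdmdx against 5.12 to 5.42 in C57Bl/6 (2.0 ± 0.26). Dmdmdx replicate 5 was close to the highest control and still above it. Sat1, which breaks polyamines down, rose by 0.95 ± 0.15, and Oaz2 (-0.64 ± 0.13) and Smox (-0.67 ± 0.23) fell. Of 16 clock genes 1 fell, Nr1d1 (-0.51 ± 0.17, lost in 2 of 10 fits without 1 array and, at an adjusted p of 0.23, without the marked arrays).

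To see which genes moved by another amount at 21 days than later, the difference within 21 days was taken from that within 3 months and within 6 months, each with controls of its own age. Levels were not compared across ages because the arrays of each age had their own mean (between 6.78 and 6.81 on the 21-day arrays, and from 7.19 up to 7.37 on the older ones). At 3 months 17 genes (0.0853%) differed with limma, 5 higher and 12 lower than at 21 days, with 1314 (6.59%) at an unadjusted p under 0.05. At 6 months 100 genes (0.502%) differed, 51 higher and 49 lower, with 2139 (10.7%) at an unadjusted p under 0.05. These counts rest on few arrays: leaving out Dmdmdx replicate 3 of 6 months gave 27 higher and 31 lower, and leaving out C57Bl/6 replicate 2 of 21 days gave 78 and 93, with the other such fits in the closing section. Some arrays labelled male had high Xist, an RNA of female cells: 1 of 5 C57Bl/6 and 2 of 5 Dmdmdx at 3 months, and 4 of 5 and 1 of 5 at 6 months, so the calls were repeated without them. This left a single C57Bl/6 array at 6 months, replicate 3, which is assumed to vary like the other groups and is itself marked by marrow genes (a mean of 9.97 against 7.06 to 8.43 on the other 4). The 6-month values without high Xist below all rest on that array. With high Xist as a covariate over all 60 arrays, an alternative added after seeing the data, 6 genes were higher and 14 lower at 3 months and 33 and 43 at 6 months.

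Arg1 rose at 21 days (2.0 ± 0.26) and not at 3 months (0.31 ± 0.26) or 6 months (0.20 ± 0.26). At 3 months its levels were 6.09 to 6.46 in Dmdmdx against 5.62 to 6.07 in C57Bl/6, and at 6 months only Dmdmdx replicate 3 (7.54) stood above the controls. The changes from 21 days, -1.69 ± 0.37 and -1.80 ± 0.37, passed (limma adjusted p = 0.041 and 0.0075) and did not pass without the high-Xist arrays (0.20 at both ages), while they passed with high Xist as a covariate (0.038 and 0.022). Igf2bp3 had a like course, with 0.97 at 21 days, -0.17 at 3 months and -0.03 at 6 months (limma adjusted p = 0.0028 and 0.0027 for the differences). Its difference at 3 months also passed without the high-Xist arrays (adjusted p = 0.03) and without the tissue-marked arrays (0.0077), but at 6 months not without high Xist (0.20, and 0.012 with it as a covariate).

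Pla2g7, an enzyme of macrophages that breaks down platelet activating factor, turned its direction. It was higher in Dmdmdx at 21 days (10.96, 10.59, 10.43, 10.29 and 10.19 against 9.18 to 9.52) and lower at 6 months (10.14 to 10.60 against 11.03 to 11.42). The differences were 1.12 ± 0.17 and -0.89 ± 0.17, and their change of -2.0 ± 0.24 passed with all arrays (limma adjusted p = 4.8e-07), without high Xist (0.00081) and without the tissue-marked arrays (0.00029). Vsig4 fell back from 2.23 at 21 days to 0.22 at 6 months (change -2.01 ± 0.45, limma adjusted p = 0.016, and 0.019 with high Xist as a covariate). Without the tissue-marked arrays the change of Vsig4 did not pass.

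Igf2, the fetal growth factor, showed the opposite course. It overlapped at 21 days, when levels were 11.96 to 12.26 in Dmdmdx and 11.80 to 12.15 in C57Bl/6, and was higher in Dmdmdx by 1.74 ± 0.21 at 3 months and 1.76 ± 0.21 at 6 months. The changes of 1.59 ± 0.29 and 1.61 ± 0.29 passed with limma (adjusted p = 0.0076 and 0.0014), also without high Xist (0.00021 and 0.007) and without the tissue-marked arrays (0.03 and 0.0065). Peg3, imprinted like Igf2, gave 0.47 at 21 days and 1.55 at 6 months (change 1.08 ± 0.24, limma adjusted p = 0.016, and 0.035 without high Xist). Ostn, which encodes the muscle-derived peptide musclin, was not called at 21 days (-0.62 ± 0.26) and fell to -3.68 ± 0.26 at 6 months (change -3.06 ± 0.37, limma adjusted p = 4.8e-07, and 0.016 without high Xist).

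The remaining genes named by the change between ages had small values at 21 days, of which Creb3l1 and Adamts9 passed as falls. Bdh1, which handles ketone bodies, gave 0.00 at 21 days and -1.53 ± 0.19 at 3 months, the heparan sulphate enzyme Hs3st5 -0.30 and -1.57 ± 0.17, and the bicarbonate transporter Slc4a4 -0.05 and -1.26 ± 0.17. Fasn, the fatty acid synthase, gave 0.01 at 21 days and -1.74 ± 0.31 at 6 months. Creb3l1, a factor of collagen secretion, moved from -0.39 ± 0.15 (limma adjusted p = 0.048, lost in 9 of 10 fits without 1 array) to 0.59 ± 0.15 at 3 months, the protease Adamts9 from -0.46 ± 0.11 to 0.32 ± 0.11, and Clic4 from 0.08 to 0.54 ± 0.06. Fbln7, Pi15 and Serpinb6b gave 0.30, -0.07 and 0.22 at 21 days and 1.35, 1.04 and 1.45 at 6 months. The changes given here at 3 months did not pass without the tissue-marked arrays and passed with high Xist as a covariate. At 6 months the changes of Fasn and Fbln7 passed in neither fit, that of Serpinb6b only without the tissue-marked arrays and that of Pi15 in both.

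Of the groups described above, none of the 30 cell division genes passed the test of change at 3 or 6 months with limma, although 28 rose at 21 days, 17 at 3 months and 0 at 6 months, with medians of 1.30, 0.93 and 0.26. Of all genes 12.3% rose at 3 months and 7.12% at 6 months, and no cell division gene was higher at 6 months at an unadjusted p under 0.05. For the change at 6 months 17 of the 30 were lower and none higher at an unadjusted p under 0.05, with a median change of -0.97. Among 31 macrophage markers 1 passed for that change (Vsig4, lower), with medians of 2.53, 1.89 and 1.64 at the 3 ages. Among 37 matrix genes 2 were higher in the change at 6 months, with medians of 0.27, 0.56 and 0.73. Endothelial markers fell in 15 of 19 cases at 21 days and in 10 at 3 months (15.8% of all genes fell there), 0 of 19 was called at 6 months with limma (6.74% of all genes fell there) or lay under an unadjusted p of 0.05, and 1 passed the test of change, with 13 higher at an unadjusted p under 0.05. These list values were not repeated without the high-Xist arrays, with high Xist as a covariate or without the tissue-marked arrays. At 6 months 4 of 5 C57Bl/6 and 1 of 5 Dmdmdx arrays had high Xist, so lineage and high Xist are partly mixed there. The mean of the marrow markers at 6 months was 8.43, 7.22, 9.97, 7.06 and 7.22 in C57Bl/6. In Dmdmdx it was 6.66, 6.76, 7.10, 6.70 and 8.43. The part of marrow cells in the list values at that age was not tested.

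**Figure D4:**
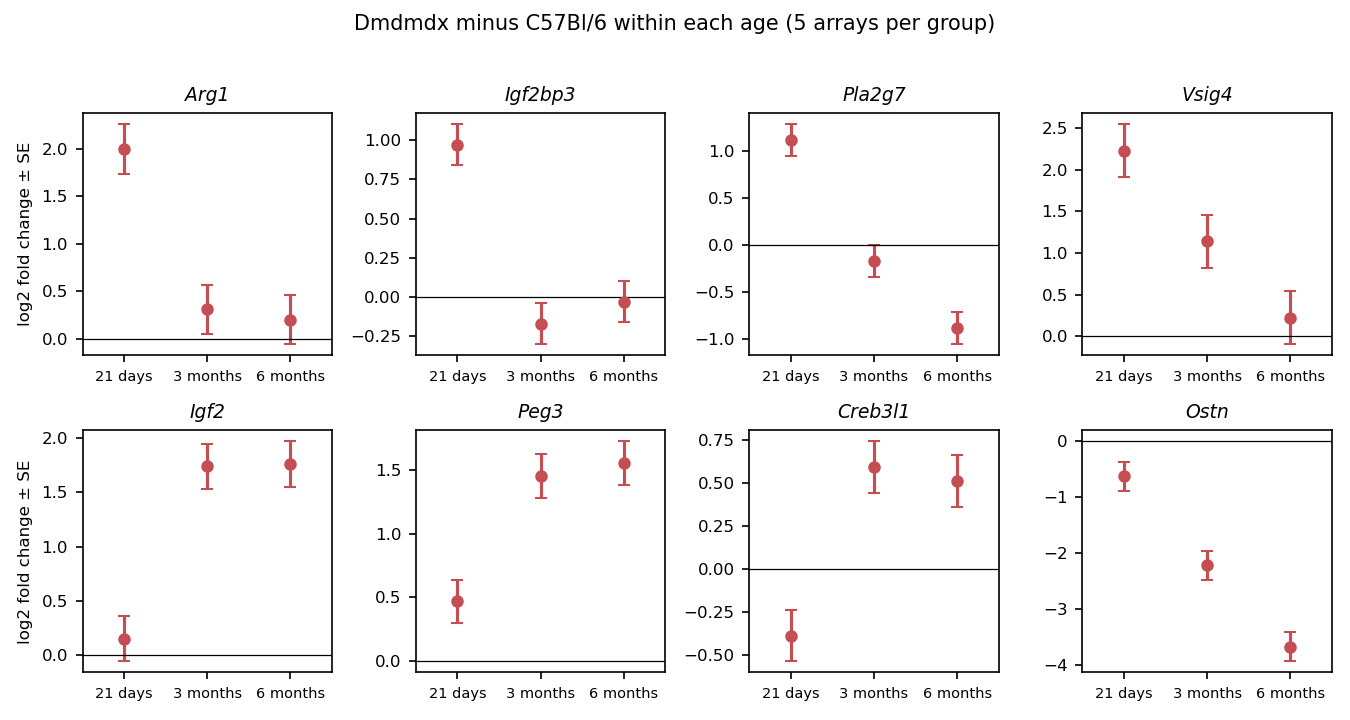
Log2 fold change of Dmdmdx minus C57Bl/6 (y axis, a separate scale in each panel) within each age (x axis) for 8 genes, with the standard error from limma (bars) and 5 arrays per group and age. Arg1, Igf2bp3 and Vsig4 are highest at 21 days (2.0, 0.97 and 2.23), Pla2g7 passes from 1.12 to -0.89, and Igf2 goes from 0.15 at 21 days to 1.74 and 1.76.

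The Dmdmdx mice were also set directly against the other mutants of the same age. Against Largemyd 1009 genes were higher and 773 lower (3.88%) in Dmdmdx (8.94% in all), and against the double mutant 2710 were higher and 2765 lower (27.5%). Without tissue-marked arrays, which are 3 of Dmdmdx and 2 of the double mutant, the counts were 286 and 216 for Largemyd and 855 and 575 for the double mutant. Some arrays under the mark also carried lymph node genes, with list means of 7.85 and 7.44 in Largemyd replicates 1 and 2 against 5.77 to 5.97 in the other 3, and 7.37 in double mutant replicate 2. Without these as well, an alternative added after seeing the data that left 2 Dmdmdx, 3 Largemyd and 2 double mutant arrays, 166 genes were higher and 188 lower against Largemyd, and 1552 and 1131 against the double mutant. Leaving out Dmdmdx replicate 1 gave 524 higher and 433 lower against Largemyd, Largemyd replicate 1 gave 483 and 430, Largemyd replicate 2 gave 426 and 393, and leaving out Dmdmdx replicate 3 gave 467 lower. Against the double mutant 1826 were lower without Dmdmdx replicate 1 and 1726 without double mutant replicate 1. Ccr2 was higher in Dmdmdx (9.33 to 10.28) than in all 5 Largemyd mice (6.51, 6.54, 8.16, 9.09 and 8.35) and all 5 double mutants (6.66, 8.40, 8.38, 7.82 and 8.28). The differences were 2.01 ± 0.33 and 1.83 ± 0.33 (limma adjusted p = 3e-05 and 6.9e-05), and without the marked arrays they passed too (0.0034 and 0.0045), as they did without any array with lymph node signal (1.21 and 2.51, adjusted p = 0.024 and 7e-06).

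Adgre1, C3ar1 and Arg1 differed by less than Ccr2. Adgre1 was higher than in Largemyd by 1.14 ± 0.25 and than in the double mutant by 1.27 ± 0.25 (limma adjusted p = 0.0023 and 0.00028, 0.057 and 0.032 without the marked arrays, and 0.34 and 0.00085 without any lymph node signal). C3ar1 was higher by 1.13 ± 0.26 and 1.09 ± 0.26, and Arg1 by 1.11 ± 0.26 against each, the latter passing also without the marked arrays (adjusted p = 0.0029 and 0.0069). In the macrophage list 9 of 31 genes were higher against Largemyd and none lower, with 1 lower at an unadjusted p under 0.05, and 13 were higher and 2 lower against the double mutant. Without any array with lymph node signal 1 and 16 were higher. Vsig4 was lower than in the double mutant by -1.86 ± 0.32 (limma adjusted p = 3.4e-05). Mmp12 was lower than in Largemyd (-1.05 ± 0.35, limma adjusted p = 0.049, and 0.57 without the marked arrays), and Serpina3n was lower than in the double mutant (-1.23 ± 0.34, limma adjusted p = 0.0059).

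Interferon-induced genes were higher in Dmdmdx than in either mutant, in 18 of 24 cases against Largemyd (5.06% of all genes were higher) and 20 of 24 against the double mutant (13.6%). Oasl2 was higher by 1.45 ± 0.29 and 1.61 ± 0.29 with all arrays, and by 1.10 and 1.05 with adjusted p of 0.11 and 0.10 without the marked ones, of which replicates 1 and 3 were the highest mutants. Without the marked arrays 2 of the 24 were higher in each comparison. Without any array with lymph node signal none was higher and 1 lower against Largemyd, with a median difference of 0.15, and 15 were higher against the double mutant. The lymph node list median was 0.76 higher in Dmdmdx than in Largemyd and 0.97 higher than in the double mutant with all arrays, and 0.06 and -0.06 without those with lymph node signal.

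Of 22 embryonic and regenerating sarcomere genes 4 were lower against Largemyd, and 9 lower and 1 higher against the double mutant, where 13.9% of all genes were lower. Without the marked arrays 0 and 3 were lower. Genes of muscle wasting and the proteasome were lower in 4 of 21 and 11 of 21 cases, and in 0 and 7 without the marked arrays. Myh3, Tnnt2, Chrng, Myog and Mymk did not pass against either mutant, with differences of -0.24 to 0.52, while Myh8 was lower in Dmdmdx (-0.81 ± 0.25 and -0.82 ± 0.25, limma adjusted p = 0.029 and 0.012, and 0.20 and 0.10 without the marked arrays). Cell division genes gave no call in either comparison (0 of 30 with limma, with 2 and 1 higher at an unadjusted p under 0.05). Igfbp3 was lower than in Largemyd by -0.85 ± 0.27 and than in the double mutant by -1.55 ± 0.27. Dmd was lower than in Largemyd (-1.09 ± 0.18) and, by -0.52 ± 0.18, than in the double mutant, where it was 8.92 to 9.20. Pttg1 was lower than in Largemyd by -1.31 ± 0.13, where it was 8.87 to 9.27, and did not pass against the double mutant (0.25 ± 0.13), where it was 7.29 to 7.82. Tcea3 followed the same order, at -0.80 ± 0.16 and 0.20 ± 0.16.

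**Figure D5:**
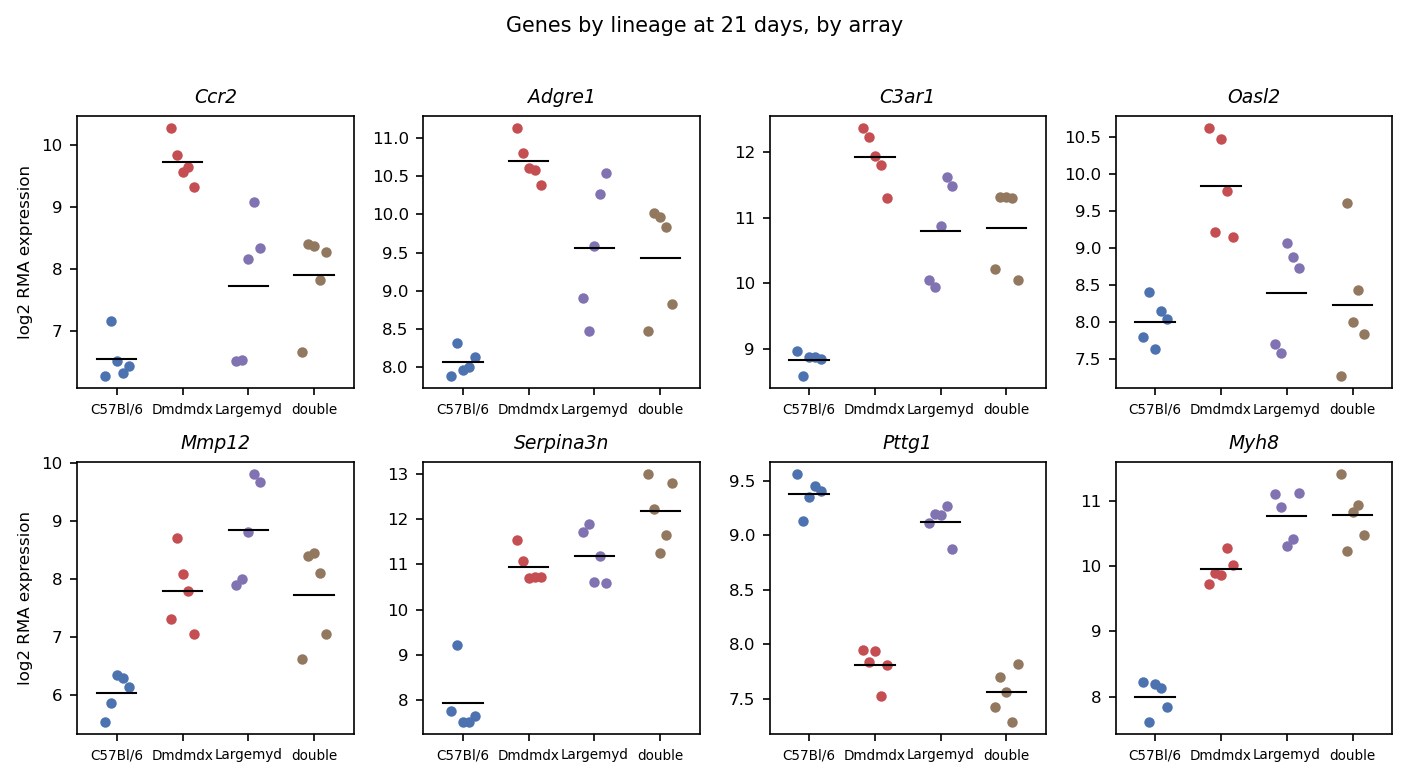
Log2 RMA expression (y axis, a separate scale in each panel) of 8 genes on each array of the 4 lineages at 21 days (x axis). Points are arrays and lines are group means of 5 arrays. Ccr2 is higher in Dmdmdx (9.33 to 10.28) than on any other array, Serpina3n is highest in double mutants, and Pttg1 is low in Dmdmdx and double mutants and high in C57Bl/6 and Largemyd.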

How the data were processed

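Calf muscles were frozen and powdered, and total RNA with an integrity number above 7 was labelled with biotin and hybridised to Affymetrix Mouse Gene 1.0 ST arrays, 1 per animal, per the labels' protocols. The deposited values are log2 expression made by the authors with RMA in Affymetrix Expression Console, per the submitters' processing notes, with versions not given in the sources used here. Signal over background and array depth cannot be read from them, so the number of arrays limits the precision.

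Of 35556 probe sets, 21789 had a single gene symbol in the platform annotation, 1621 had several and 12146 had none that could be used, and 21698 were matched to current symbols by Entrez identifier. The probe set with the highest mean over the 60 arrays stood for its gene, which gave 19938 genes, 999 of them with more than 1 probe set. No pair of arrays was identical and 0 columns of values were left unused. Ages were compared only through differences within an age.

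Groups were taken from the labelled lineage and age. limma 3.58.1 (lmFit and eBayes, R 4.3.3) was fitted to 12 group means over all 60 arrays, which left 48 residual degrees of freedom, with Benjamini-Hochberg adjustment over all genes and a threshold of 0.05. Tables and figures used pandas 2.3.3 and matplotlib 3.10.9 under Python 3.11.15, and the fit was tested on simulated data. There, changes of 0.5, 1 and 2 log2 units were recovered in 71.6%, 91.0% and 98.5% of cases, and 15 of 189 calls were false. The simulated noise was independent between genes and arrays, so it held no carry-over of other tissue. Alternatives were other sets of arrays, array medians subtracted, array weights, a filter on low values, probe set means, eBayes with trend and robust estimation, the lymph node mean as a covariate, a replicate block, and leaving out each array, the arrays marked by lymph node, marrow or skin genes (a list mean over 2 log2 units higher than on the median array of that age) and those with high Xist. Leaving out every 21-day array with lymph node signal (a list mean over 1 log2 unit higher than on the median array) and high Xist as a covariate were added after seeing the data.

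The 49 gene lists (955 different genes, 891 measured) and the genes always named were chosen with earlier results of these data known. Genes were named by rule: the 10 largest rises and falls whose arrays did not overlap, without predicted genes, the chosen genes, up to 2 more per list, the 5 largest in each direction for each difference between ages, and 3 promoters for each of 2 lists. Further list members named as examples were chosen after their values were seen. Promoters came from the RefSeq table of GRCm38.p6. Titles at 21 days carry the letters A to E in Dmdmdx and C57Bl/6 alike. Deviations of same-lettered arrays correlated at -0.21, -0.44, -0.24, 0.42 and -0.10, so the letters were not taken to pair animals.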

Additional observations from a re-analysis of the deposited data

Results flagged for a closer look

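Of 292 groups of arrays tested for a single array far from the rest, 25 were marked, and chance marks about 1 in 20 groups. Of these 25, 15 were C57Bl/6 replicate 2, which was high in Ccl8 (7.43), Ccr2 (7.16), Csf1r (9.42), Ctss (9.02), Cybb (9.96), H2-Aa (11.38), H2-Ab1 (11.31), Il10ra (8.21), Lyz2 (11.96), Mpeg1 (8.66), Retnlg (6.87), Serpina3n (9.22), Serpinb6b (9.02) and Tgfb1 (9.35) and low in Ndufb2 (9.12). This is the control whose lymph node markers stood apart, and the part of those cells in the high values was not tested.

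Dmdmdx replicate 1 was high in Csf1r (10.74) and Hp (9.65) and low in Ryr1 (11.34). Dmdmdx replicate 2, which lacked the lymph node markers, was low in H2-Aa (10.47), H2-Ab1 (10.15) and Igfbp3 (9.48) and high in Mt2 (13.18). Dmdmdx replicate 5 was high in Cdh15 (8.88), C57Bl/6 replicate 1 in Ppargc1a (10.64) and C57Bl/6 replicate 3 in Mybpc2 (13.11).

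The difference of Dmdmdx from C57Bl/6 changed between 21 days and 3 months, tested as a difference of differences with limma, in Adamts9 (0.78), Arg1 (-1.69), Bdh1 (-1.53), Clic4 (0.45), Creb3l1 (0.98), Hs3st5 (-1.27), Igf2 (1.59), Igf2bp3 (-1.14), Pla2g7 (-1.29) and Slc4a4 (-1.21). Between 21 days and 6 months it changed in Arg1 (-1.80), Bdh1 (-1.13), Creb3l1 (0.90), Fasn (-1.75), Fbln7 (1.05), Hs3st5 (-1.12), Igf2 (1.61), Igf2bp3 (-1.0), Ostn (-3.06), Peg3 (1.08), Pi15 (1.12), Pla2g7 (-2.0), Serpinb6b (1.23) and Vsig4 (-2.01). Of the 10 genes at 3 months, Igf2 and Igf2bp3 passed both without the arrays with high Xist and without the tissue-marked arrays, and all 10 passed with high Xist as a covariate. Of the 14 at 6 months, 9 passed without the tissue-marked arrays (Arg1, Hs3st5, Igf2, Igf2bp3, Ostn, Peg3, Pi15, Pla2g7 and Serpinb6b) and 10 with high Xist as a covariate (these without Serpinb6b, and Bdh1 and Vsig4). Without the high-Xist arrays a single marrow-marked control is left at 6 months, so that fit is not used here.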

How the results depend on the processing

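No gene called both with all arrays and under an alternative turned direction in the comparison of Dmdmdx with C57Bl/6 at 21 days, and 2329 higher and 2689 lower genes became 1831 and 4700 with array medians subtracted and 3365 and 4640 with array weights. For the change from 21 days to 3 months, 5 genes higher became 102 with array weights, 3 without the tissue-marked arrays and 8 with the lymph node covariate, and 12 lower became 98, 2 and 34, 5 with the arrays of those groups alone and 7 without high-Xist arrays. For the change to 6 months, 51 higher became 372 with the groups alone, 103 with medians subtracted, 886 with weights, 94 without high Xist and 33 with it as a covariate, and 49 lower became 252 with the groups alone, 1025 with weights and 175 without high Xist. Against Largemyd 1009 higher became 391 with the 20 arrays of 21 days, 394 with the groups alone, 286 without marked arrays and 166 without any lymph node signal, and 773 lower became 343, 329, 216 and 188. Against the double mutant 2710 higher became 855 without marked arrays and 1552 without any lymph node signal, and 2765 lower became 575 and 1131. The covariate of high Xist and the removal of every array with lymph node signal were chosen after seeing the data. Leaving out 1 array at a time gave 1862 to 2607 higher and 1979 to 3073 lower in the main comparison, 3 to 9 and 8 to 17 at 3 months, 27 to 78 and 29 to 93 at 6 months, 426 to 1422 and 393 to 1063 against Largemyd, and 1856 to 2676 and 1726 to 2790 against the double mutant. The arrays that moved the count of genes higher at 3 months were Dmdmdx replicate 1 (3) and 5 (9) and C57Bl/6 replicate 2 (3) of that age. At 6 months the counts higher moved without Dmdmdx replicates 2 (32), 3 (27) and 4 (78) and C57Bl/6 replicate 5 (31) of that age and Dmdmdx replicates 2 (32) and 3 (30) and C57Bl/6 replicate 2 (78) of 21 days, and the counts lower without Dmdmdx replicates 2 (29) and 3 (31) and C57Bl/6 replicate 4 (31) of that age and C57Bl/6 replicate 2 of 21 days (93). The cause was not tested. With the replicate letter as a block 2312 genes were higher and 2640 lower at 21 days, and Chac1, H2-Ab1 and Pmaip1 lost their calls. No call of a single named gene reversed, and 14 calls were lost without the marked arrays: Cdh15, Chac1, Creb3l1, Fmod, Hp, Igfbp3, Mstn, Myod1, Nr1d1, Peg3, Pfkfb3, Pmaip1, Ppargc1a and Tnc. That setting leaves 2 Dmdmdx arrays. Of 49 list medians 9 turned sign under at least 1 of 11 alternatives. With a value over 0.1 these were lymph node (0.65 to -0.11) and marrow markers (0.14 to -0.37), both with the lymph node covariate, and skin markers (-0.11 to 0.10 without C57Bl/6 replicate 2), and the other 6 stayed within 0.1 of 0. In 25 lists a count of 4 or more calls moved by over 1.5 times. Antigen presentation genes went from 12 of 15 higher to 4 with the replicate block, interferon-induced genes from 22 to 14 without the marked arrays, and chemokine receptors from 4 to 10 and cytokine genes from 13 to 20 higher with array weights. With only the arrays of the groups, lower counts went from 7 to 12 for fast fibre, 0 to 6 for slow fibre, 11 to 18 for excitation and contraction and 7 to 11 for stem cell genes. With the lymph node covariate they went from 13 to 8 for complex V, 10 to 4 for glucose and glycogen use and 6 to 2 for embryonic sarcomere genes. No list shared a member with the lymph node or MHC list, so leaving out shared members changed nothing.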
